A study of Mus musculus with 54 samples.

Results

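Bulk RNA sequencing of mouse prostate tumour tissue was examined for 9 genes of T cells, natural killer (NK) cells and checkpoint receptors, among the 16772 genes of the table. They are the T cell receptor subunit genes Cd3e and Cd3g, the co-receptor genes Cd4 and Cd8a, the checkpoint receptor genes Pdcd1, Ctla4 and Lag3, and the cytotoxic genes Gzmb and Nkg7. All 9 had a row in the table. The members were chosen by name with values of these same animals in view, in particular the absence of Pdcd1 in castrated DKO_EP tumours. Member values in the castrated DKO_EE, DKO_EP and DKO groups chose the list, so they are described without a test. The tests on members compare the other groups, and the correlation tests use only those. The fits of changes over time and of interactions took their spread from all 11 groups, the castrated ones included. Their standard errors and p-values are therefore not free of the values that chose the list.

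The study set mice of a tumour model called DKO beside DKO mice with Ezh2 deletions, called DKO_EE and DKO_EP, and it treated a TKO model with an Ezh2 inhibitor after castration. Ezh2 encodes the methyltransferase of Polycomb repressive complex 2. The labels name neither the genes lost in DKO and TKO nor what EE and EP stand for, nor the promoter that drives the deletions. There were 48 animals in 11 groups. Castrated TKO mice received CPI1688 (4 animals of 18 to 19 weeks) or vehicle (4 animals of 15 to 19 weeks). Mice castrated at 12 weeks and sampled at endstage were DKO_EE (5 animals, 35 to 59 weeks), DKO_EP (5 animals, 34 to 37 weeks) and DKO (4 animals, 39 to 99 weeks). Intact mice at endstage were DKO_EE (8 animals, 28 to 42 weeks), DKO_EP (3 animals, 39 to 52 weeks) and DKO (3 animals, 35 to 46 weeks). Intact mice of 12 weeks were DKO_EE, DKO_EP and DKO, with 4 animals each. Every DKO_EE and DKO_EP animal also carried the DKO background, and no tissue without a tumour model was measured.

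T cells recognise antigen with a receptor whose signal runs through the CD3 chains, with CD4 or CD8 as co-receptor. Activated T cells display inhibitory receptors such as PD-1, CTLA-4 and LAG-3, which dampen the response when they meet their ligands and which checkpoint antibodies block in cancer treatment. Cytotoxic T cells and NK cells kill target cells with perforin and granzymes, and prostate tumours are known for sparse infiltration by such cells. In bulk tissue, fewer cells of a type and less RNA per cell cannot be told apart.

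Libraries held 3687048 to 9741808 reads over the table's genes, with a median of 6314364. At that depth 1 read corresponded to 0.79 to 1.99 on the table's scale, log2 of a normalized count plus 1, and 8.92% of all values were at 0. The members were low in this tissue: by mean value over all animals, 2 of 9 (Cd4 and Lag3) lay above the lowest 25% of genes. Lars2 took over 10% of the reads in 5 of 12 DKO_EE and 5 of 5 DKO_EP intact endstage libraries and in none of the other groups. Krt8, Krt18 and Epcam RNA was present in every group, while Pbsn and Msmb, markers of the mature prostate secretory epithelium, had 0 reads in the DKO_EE, DKO_EP and DKO groups at endstage, castrated or intact. Nothing in the labels says that animals of a group were independent litters, so p-values measure the spread between these animals.

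The genes lie on 5 chromosomes of GRCm38 by the GENCODE M21 annotation. Cd3g (chr9:44969572-44980431, minus strand) and Cd3e (chr9:44998740-45009627, minus strand) flank Cd3d, a further CD3 chain gene. Cd4 (chr6:124864692-124888221, minus strand) and Lag3 (chr6:124904361-124911705, minus strand) are neighbours with 16139 bases between them. The others are Cd8a (chr6:71373427-71379173, plus strand), Ctla4 (chr1:60887000-60915832, plus strand), Pdcd1 (chr1:94038305-94052553, minus strand), Gzmb (chr14:56258838-56262260, minus strand) and Nkg7 (chr7:43437073-43438249, plus strand). Cd3e overlaps the gene models Gm48719 and Gm48720 and Ctla4 overlaps the pseudogene Rpl18-ps1, none of which is in the table. Gzmb belongs to a cluster of granzyme genes of similar sequence, and how reads shared among such genes were divided is not given in the sources used here.

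RefSeq promoter sequence on GRCm38.p6 was matched for 7 of the 9 members. The 120 bases before the RefSeq start are shown for 4 genes that fell between 12 weeks and endstage in DKO_EE, and for Pdcd1, whose absence in one group led to the list. Capitals mark GGAA, the core bound by ETS factors, and TGTGGT, the core bound by RUNX factors, on either strand (TTCC and ACCACA on the printed one).
Cd3e (chr9:45009612-45009731, minus strand): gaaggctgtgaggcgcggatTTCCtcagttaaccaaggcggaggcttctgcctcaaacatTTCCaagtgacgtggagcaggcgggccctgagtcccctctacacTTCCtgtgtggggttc
Cd3g (chr9:44980432-44980551, minus strand): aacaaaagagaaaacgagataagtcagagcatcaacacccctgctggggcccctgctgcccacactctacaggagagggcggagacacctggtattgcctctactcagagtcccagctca
Cd8a (chr6:71373307-71373426, plus strand): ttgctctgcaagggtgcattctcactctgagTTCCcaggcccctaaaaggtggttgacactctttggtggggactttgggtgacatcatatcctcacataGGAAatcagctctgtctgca
Gzmb (chr14:56262335-56262454, minus strand): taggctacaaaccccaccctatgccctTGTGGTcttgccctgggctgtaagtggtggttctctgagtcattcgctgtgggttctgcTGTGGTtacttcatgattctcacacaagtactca
Pdcd1 (chr1:94052554-94052673, minus strand): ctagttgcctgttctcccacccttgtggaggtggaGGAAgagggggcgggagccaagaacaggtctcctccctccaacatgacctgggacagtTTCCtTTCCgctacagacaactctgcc
GGAA was found 3 times each in the Cd3e and Pdcd1 stretches and 2 times in that of Cd8a, and it was present in 73.4% of 32851 promoter stretches of the same length. TGTGGT was found 2 times in the Gzmb stretch and was present in 6.72% of the 32851.

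Across the 11 groups, 7 of the 9 genes shared a broad pattern, while Cd4 and Lag3 had patterns of their own. Cd3e, Cd3g, Cd8a, Ctla4 and Gzmb had their 3 highest group means in the 12-week tissue of the 3 genotypes, and the lowest group mean of each lay in castrated DKO_EE or DKO_EP tumours. Nkg7 had its highest mean in 12-week DKO tissue, and Pdcd1 in intact endstage DKO tumours. Cd4 moved little, between 3.25 in intact endstage DKO_EP tumours and 5.08 in 12-week DKO_EE tissue. The low end averages unlike pieces, with Cd4 at 0 in AP and 5.63 in LP-DP of DKO_EP replicate 1. Lag3 ran the other way, with its 3 lowest means, 3.52 to 4.20, in the 12-week groups and its highest, 5.52, in castrated DKO tumours. When the groups of each gene were ordered by mean, neighbours in the order overlapped throughout, with the single exception of Gzmb, where every 12-week DKO_EE animal lay above every intact endstage DKO animal, the group below it.

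**Figure D1:**
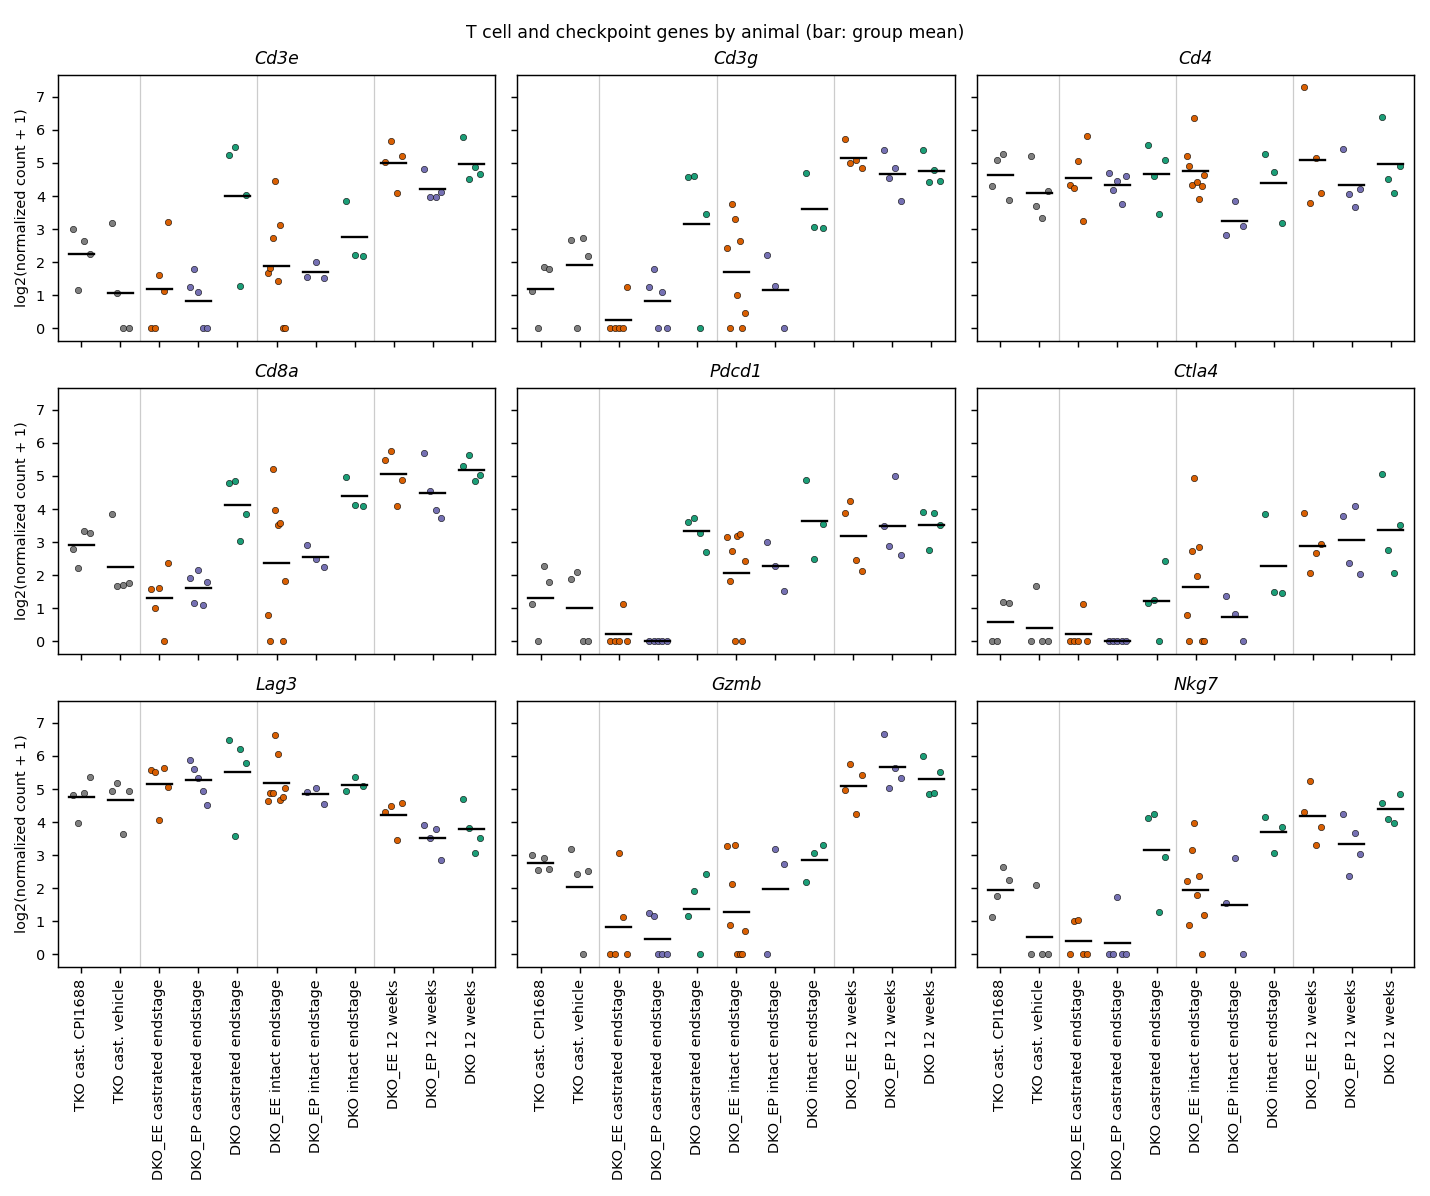
Each point is 1 animal, the bar is the group mean and the y axis is log2 of the normalized count plus 1, for 9 genes over 11 groups. Most panels are highest in the 12-week groups at the right, Lag3 is lowest there (means 3.52 to 4.20), and Pdcd1 and Ctla4 lie at 0 in all 5 castrated DKO_EP animals.

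Whether the tissue differs between the Ezh2 genotypes at 12 weeks was asked first. No member passed the test in any of the 3 comparisons by limma (adjusted p over all genes under 0.05), and the levels were close. Cd3e had log2 values of 5.02, 5.67, 4.10 and 5.21 in DKO_EE, 4.80, 3.98, 3.98 and 4.13 in DKO_EP, and 5.79, 4.52, 4.89 and 4.67 in DKO. These are 14 to 54 reads an animal, and the 3 ranges overlap. The Gzmb log2 value averaged 5.10 ± 0.65 in DKO_EE tissue, 5.66 ± 0.71 in DKO_EP tissue and 5.31 ± 0.54 in DKO tissue (mean ± SD of 4 animals each). Pdcd1 averaged 3.18 ± 1.04, 3.49 ± 1.06 and 3.52 ± 0.53 in the same order of groups. The largest member difference was that of Nkg7, a granule protein gene of cytotoxic cells, in DKO_EP against DKO at a log2 fold change of -1.05 (SE 0.50, adjusted p = 0.991). Called members were 0 of 9 in DKO_EE against DKO, where 0% of all genes were called, 0 of 9 in DKO_EP against DKO (0% of all genes), and 0 of 9 in DKO_EE against DKO_EP (0%). No member had an unadjusted p under 0.05, and limma-voom called 0. Of 51 other T and NK cell genes measured, 0 were called in each comparison, and 0, 3 and 1 had an unadjusted p under 0.05. These comparisons share samples with one another. The standard errors of the members, 0.38 to 0.76, bound how small a difference 4 animals a group could show. Summed normalized counts of 4 skeletal muscle genes ran from 122 to 1462 in this DKO_EE tissue. They ran from 227 to 251490 in DKO_EP and from 9951 to 253930 in DKO. The part of muscle content in the member comparisons was not tested.

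Of the comparisons in which members were tested, calls were made only between intact endstage and 12 weeks. In DKO_EE tumours Gzmb, Cd3g, Cd3e, Cd8a and Nkg7 fell. In DKO_EP tumours the same 5 genes and Ctla4 fell and Lag3 rose, and in DKO tumours Gzmb and Cd3e fell and Lag3 rose. These are 5 lower members of 9 in DKO_EE, where 27% of all genes were lower and 23.6% higher. They are 6 lower and 1 higher in DKO_EP, where 22.9% of all genes were lower and 21.3% higher. For DKO they are 2 lower and 1 higher, where 18.7% were lower and 18% higher. The DKO count is thus near the share of all genes. Limma-voom on the recovered reads called 6 members in DKO_EE, among them all 5 above. In DKO_EP it called 2, Gzmb and Cd3g, while Cd3e (adjusted p = 0.125), Cd8a (0.106), Ctla4 (0.0890), Nkg7 (0.171) and Lag3 (0.0652) did not pass. In DKO it called Gzmb (adjusted p = 0.0206) and neither Cd3e (0.0513) nor Lag3 (0.0557). All 5 libraries of endstage DKO_EP tumours held 14.2 to 21.6% Lars2 reads and no 12-week library held over 10%, so in DKO_EP time and Lars2 share cannot be told apart. With libraries under 10% Lars2, 6 members were called in DKO_EE. The median log2 fold change of the 9 genes was -2.24 in DKO_EE, -1.94 in DKO_EP and -0.80 in DKO, against -0.07, -0.06 and -0.04 over all genes.

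Gzmb encodes granzyme B, the protease that cytotoxic cells deliver into their targets. It had log2 values from 0 to 3.31 with a median of 0.80 in 8 intact endstage DKO_EE tumours, against 4.97, 5.76, 4.25 and 5.43 in DKO_EE tissue of 12 weeks. In DKO_EP it had 0, 3.19 and 2.73 at endstage, against 6.66, 5.03, 5.64 and 5.33 at 12 weeks. In DKO it had 2.19, 3.06 and 3.31 at endstage, against 5.98, 4.85, 4.89 and 5.50 at 12 weeks. Endstage and 12-week animals did not overlap in any of the genotypes. By limma the log2 fold change was -3.81 in DKO_EE (SE 0.65, adjusted p = 1.06e-05), -3.69 in DKO_EP (SE 0.81, adjusted p = 0.000368) and -2.45 in DKO (SE 0.81, adjusted p = 0.0160). The DKO call was lost without endstage DKO replicate 1 (adjusted p = 0.0779), while the DKO_EE and DKO_EP calls held without any single animal.

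The receptor subunit genes Cd3e and Cd3g were lower at endstage in DKO_EE and DKO_EP. Cd3e had log2 values from 0 to 4.45 with a median of 1.74 in intact endstage DKO_EE tumours, against 4.10 to 5.67 at 12 weeks, so that 1 endstage animal, replicate 4, reached into the 12-week range. In DKO_EP it had 1.57, 2.0 and 1.52 at endstage, against 3.98 to 4.80 at 12 weeks. In DKO it had 3.84, 2.22 and 2.19 at endstage, against 4.52 to 5.79 at 12 weeks. Animals did not overlap in either. The values of DKO_EP replicates 1 and 2 each average 2 pieces, 1 of them at 0. The DP piece of replicate 2, at 3.99, lay within the 12-week range. The log2 fold change of Cd3e was -3.10 in DKO_EE (SE 0.70, adjusted p = 0.000400), -2.53 in DKO_EP (SE 0.88, adjusted p = 0.0181) and -2.21 in DKO (SE 0.88, adjusted p = 0.0442). Cd3g changed by -3.46 in DKO_EE (SE 0.69, adjusted p = 7.96e-05) and by -3.49 in DKO_EP (SE 0.86, adjusted p = 0.00114), while its difference of -1.17 in DKO (SE 0.86, adjusted p = 0.295) did not pass. The Cd3e call in DKO was lost when any 1 of 7 animals other than endstage replicate 1 was left out (adjusted p up to 0.149), and that in DKO_EP without endstage replicate 1 or 3 (adjusted p up to 0.0550). Cd3g kept both calls without any single animal.

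Of the co-receptor genes, Cd8a passed in DKO_EE and DKO_EP and Cd4 in no genotype, and the difference between the genes was not tested. Cd8a, which marks cytotoxic T cells and some dendritic cells, had log2 values from 0 to 5.21 with a median of 2.67 in intact endstage DKO_EE tumours, against 4.10 to 5.76 at 12 weeks. It fell by 2.70 in DKO_EE (SE 0.65, adjusted p = 0.000793) and by 1.94 in DKO_EP (SE 0.81, adjusted p = 0.0493). Its difference in DKO was -0.80 (SE 0.81, adjusted p = 0.470). The DKO_EP call was lost when any 1 of 7 animals other than 12-week replicate 4 was left out. Cd4, which marks helper and regulatory T cells and is present on some myeloid cells, did not pass in any genotype. Its log2 fold change was -0.31 in DKO_EE (SE 0.54), -1.10 in DKO_EP (SE 0.67) and -0.58 in DKO (SE 0.67), with adjusted p of 0.654, 0.187 and 0.530.

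Among the checkpoint receptor genes, Lag3 and Ctla4 were called in some genotypes and Pdcd1 in none. Lag3, a CD4-like receptor that binds class II molecules and FGL1, had log2 values of 4.92, 5.03 and 4.55 in endstage DKO_EP tumours, against 3.92, 3.53, 3.78 and 2.84 at 12 weeks. In DKO it had 4.93, 5.37 and 5.09 at endstage, against 4.71, 3.83, 3.07 and 3.52 at 12 weeks, and in DKO_EE 4.64 to 6.63 at endstage, against 3.45 to 4.57 at 12 weeks. Every endstage animal lay above every 12-week animal of its genotype. Its log2 fold change was 0.99 in DKO_EE (SE 0.43, adjusted p = 0.0507), 1.32 in DKO_EP (SE 0.53, adjusted p = 0.0410) and 1.35 in DKO (SE 0.53, adjusted p = 0.0434). The DKO call was lost without any 1 of 7 animals other than 12-week replicate 1 (adjusted p up to 0.131). The DKO_EP call was lost without endstage replicates 1, 2 or 3 or 12-week replicates 2 or 4 (adjusted p up to 0.118).

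Ctla4, an inhibitory receptor that competes with CD28 for CD80 and CD86, fell in DKO_EP tumours by 2.33 (SE 0.82, adjusted p = 0.0201). It had 1.38, 0.82 and 0 at endstage, against 3.79, 2.38, 4.08 and 2.03 at 12 weeks, without overlap of animals. In endstage replicate 1 the LP-DP piece, at 2.77, lay within the 12-week range, and the AP piece was at 0. The call was lost without endstage replicate 3 or 12-week replicates 1 or 3 (adjusted p up to 0.0988). Ctla4 did not pass in DKO_EE (log2 fold change -1.23, SE 0.66, adjusted p = 0.118) or DKO (-1.08, SE 0.82, adjusted p = 0.320). Pdcd1, which encodes PD-1, did not pass in any genotype, at -1.11 in DKO_EE (SE 0.58), -1.22 in DKO_EP (SE 0.72) and 0.11 in DKO (SE 0.72), with adjusted p of 0.107, 0.168 and 0.923. Nkg7 fell by 2.24 in DKO_EE (SE 0.59, adjusted p = 0.00180) and by 1.84 in DKO_EP (SE 0.73, adjusted p = 0.0390). Its difference in DKO was -0.69 (SE 0.73, adjusted p = 0.488). The DKO_EP value of Nkg7 was -1.10 (adjusted p = 0.296) without endstage replicate 3, and its call was also lost without endstage replicate 1 or 12-week replicates 1 or 3.

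**Figure D2:**
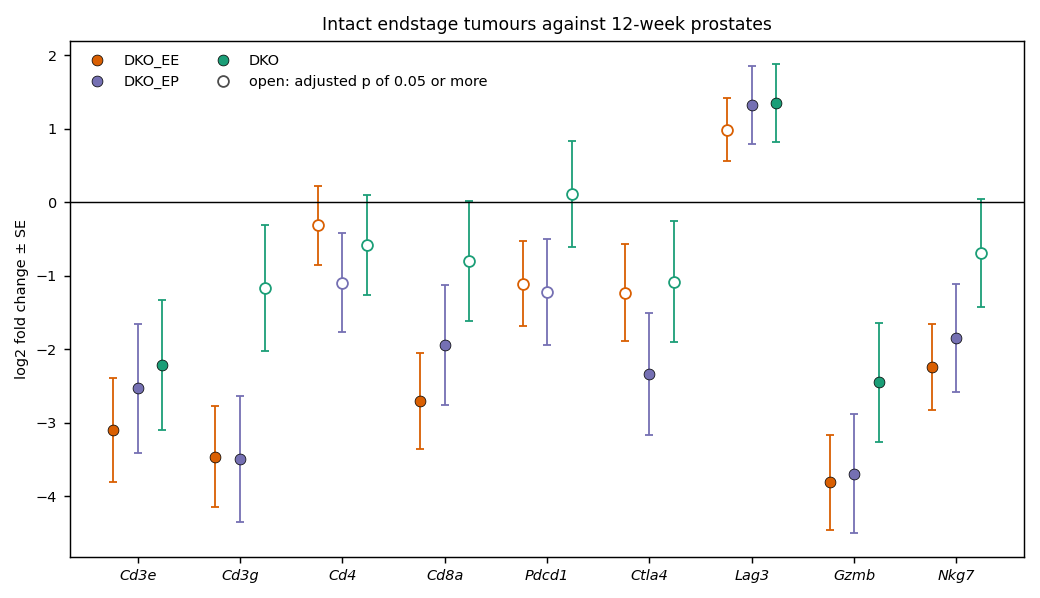
Log2 fold change of intact endstage over 12-week tissue for each gene and genotype (limma, all 11 groups in one fit), with the standard error as bars and filled points for an adjusted p under 0.05. Gzmb is lowest in all 3 genotypes, at -3.81, -3.69 and -2.45, and Lag3 alone lies above 0 in every genotype.

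Whether the change over time differed between genotypes was tested with an interaction term. No member passed for DKO_EE against DKO, where 0.125% of all genes were called, or for DKO_EP against DKO (0.00596%). Cd3g had the largest interactions. They were -2.29 for DKO_EE (SE 1.10, adjusted p = 0.461) and -2.32 for DKO_EP (SE 1.21, adjusted p = 1). In the DKO_EE term it was the 1 member with an unadjusted p under 0.05. Limma-voom called 0 members in both. The larger number of calls in DKO_EE is therefore not shown to be a difference from DKO.

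Other genes of T and NK cells were counted in the same comparisons, against the shares of all genes that were lower (27% in DKO_EE, 22.9% in DKO_EP and 18.7% in DKO). Of 51 measured, 43 fell and 3 rose in DKO_EE, 28 fell and 2 rose in DKO_EP, and 11 fell and 1 rose in DKO, where the lower count is near the share of all genes. Members of the NK and cytotoxic list fell in every genotype, in 14 of 16 in DKO_EE, 9 of 16 in DKO_EP and 8 of 16 in DKO. Ncr1, which encodes the NK receptor NKp46, changed by -3.44 in DKO_EE (SE 0.40, adjusted p = 2.57e-08), -3.07 in DKO_EP (SE 0.50, adjusted p = 8.92e-06) and -3.02 in DKO (SE 0.50, adjusted p = 1.40e-05). The NK receptor genes Klrk1 and Klrd1 fell in all 3 genotypes too, with Klrk1 at -3.68 in DKO_EE, -3.81 in DKO_EP and -2.38 in DKO. On the list of T cell receptor signalling genes, 14 of 16 fell in DKO_EE and 6 of 16 in DKO_EP, and 0 of 16 were called in DKO. Cd3d, between Cd3g and Cd3e on chromosome 9, fell by 2.96 in DKO_EE (SE 0.58, adjusted p = 7.36e-05). Cd28, the co-stimulatory receptor gene, changed by -2.39 in DKO_EE (SE 0.53, adjusted p = 0.000328) and -2.91 in DKO_EP (SE 0.67, adjusted p = 0.000567).

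Genes of T cell identity and of helper or regulatory states fell in 10 of 12 cases in DKO_EE, 9 of 12 in DKO_EP and 2 of 12 in DKO, the last near the share of all genes. The interleukin-2 receptor gene Il2ra changed by -3.85 in DKO_EE (adjusted p = 9.44e-06), -4.22 in DKO_EP (adjusted p = 7.71e-05) and -3.38 in DKO (adjusted p = 0.00117). The regulatory T cell factor gene Foxp3 fell by 2.34 in DKO_EE (SE 0.63, adjusted p = 0.00222) and by 2.30 in DKO_EP (SE 0.79, adjusted p = 0.0162). Its difference in DKO was -0.38 (SE 0.79, adjusted p = 0.739). Foxp3 overlaps other genes of the table, Ppp1r3f and Ccdc22, on the opposite strand. Of 7 other inhibitory receptors and exhaustion factors, 5 fell in DKO_EE, 4 in DKO_EP and 1 in DKO, again near the share of all genes.

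The genes that rose are Tox, Gzma and Skap1. Tox, a factor of T cell exhaustion that is not confined to T cells, rose in every genotype, by 3.25 in DKO_EE (SE 0.56, adjusted p = 1.29e-05), 3.66 in DKO_EP (SE 0.70, adjusted p = 7.22e-05) and 3.10 in DKO (SE 0.70, adjusted p = 0.000630). Gzma, which encodes granzyme A and was singled out after its values were seen, had 5.49 to 10.24 with a median of 8.67 in endstage DKO_EE tumours, against 3.23, 2.07, 3.56 and 5.04 at 12 weeks. It had 6.96, 7.58 and 6.02 in endstage DKO_EP tumours, against 3.49, 3.39, 4.17 and 2.03 at 12 weeks. The groups did not overlap, and Gzma rose by 5.05 in DKO_EE (SE 1.02, adjusted p = 9.37e-05) and by 3.58 in DKO_EP (SE 1.27, adjusted p = 0.0203). The granzyme genes Gzma and Gzmb therefore moved in opposite directions in both genotypes. Skap1, an adaptor gene of T cell receptor signalling, rose in DKO_EE by 5.44 (SE 0.95, adjusted p = 1.44e-05), while its difference was -0.64 in DKO_EP (SE 1.18, adjusted p = 0.689) and 0.34 in DKO (SE 1.18, adjusted p = 0.851). Its interaction between DKO_EE and DKO did not pass over all genes (5.10, SE 1.52, adjusted p = 0.173).

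**Figure D3:**
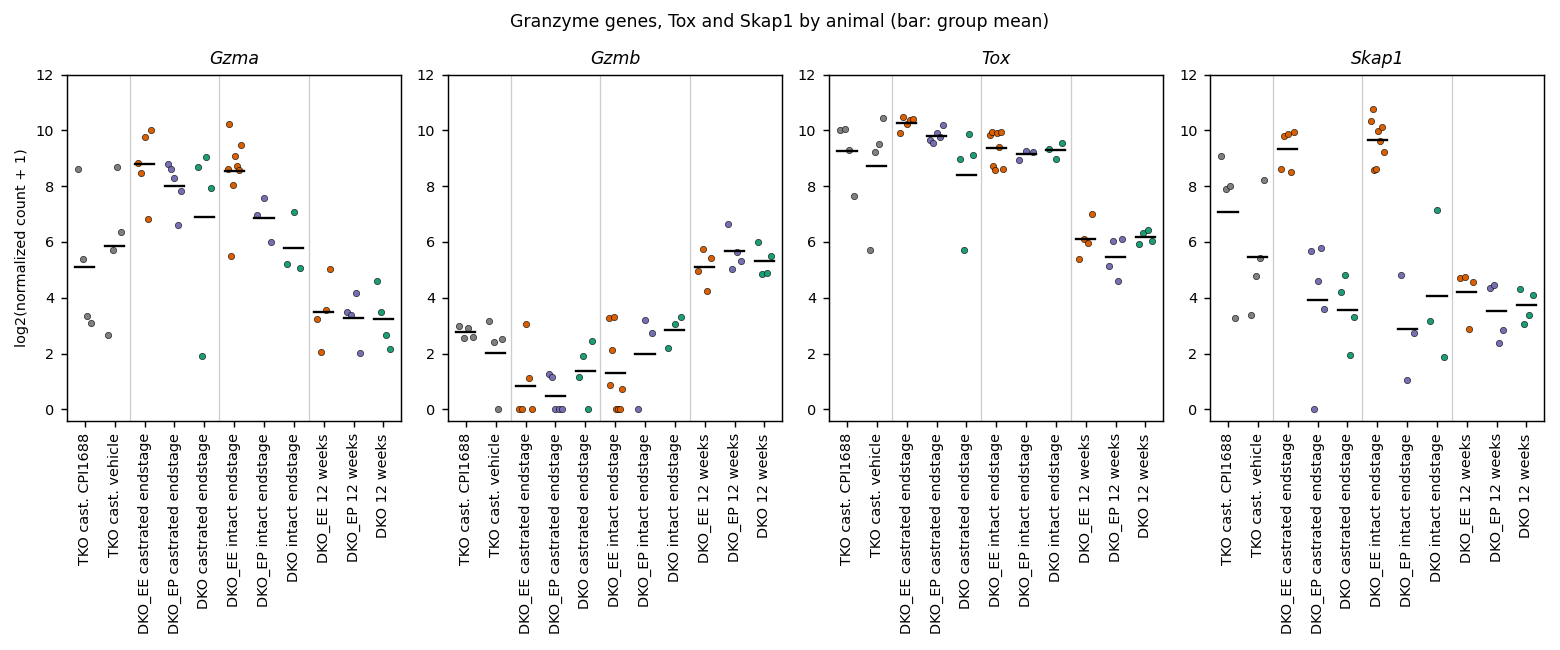
Log2 of the normalized count plus 1 of Gzma, Gzmb, Tox and Skap1 in each animal, with the group mean as a bar. By group mean, Gzma and Tox are higher at endstage than at 12 weeks in each genotype (Gzma 8.53 against 3.47 on average in DKO_EE), Gzmb is lower, and Skap1 is high in every endstage DKO_EE animal, at 8.51 or more.

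Markers of other cells were counted in the same comparisons. Of all genes, 27% were lower and 23.6% higher in DKO_EE, 22.9% and 21.3% in DKO_EP, and 18.7% and 18% in DKO. All 7 leukocyte genes fell in DKO_EE, among them Ptprc (CD45) at -1.84 (SE 0.45, adjusted p = 0.000869), 2 of 7 fell in DKO_EP and 0 of 7 were called in DKO. Summed normalized counts of these 7 genes ran from 524 to 3051 in endstage DKO_EE tumours and from 2968 to 6781 at 12 weeks. Those of 10 B and plasma cell genes ran from 32.2 to 858 in endstage DKO_EE tumours and from 192 to 2478 at 12 weeks. Fibroblast genes fell in 5 of 5 cases in DKO_EE and 3 of 5 in DKO_EP, and 0 of 5 were called in DKO. Their summed counts ran from 472 to 18649 in endstage DKO_EE tumours and from 10989 to 34411 at 12 weeks, and from 4557 to 4718 in endstage DKO_EP tumours and from 8930 to 27138 at 12 weeks. Neutrophil genes fell in 4 of 7 cases in DKO_EE and 4 of 7 in DKO_EP, and 0 of 7 were called in DKO, with Ly6g at 0 reads in every intact endstage animal. Macrophage genes fell in 5 of 8 cases in DKO_EE, 1 of 8 in DKO_EP and 0 of 8 in DKO. Of 7 dendritic cell genes, 4 fell and 2 rose in DKO_EE, 3 fell and 3 rose in DKO_EP, and 2 fell and 2 rose in DKO. Of the 4 skeletal muscle genes, 1 fell in DKO_EE, 3 in DKO_EP and 4 in DKO. The leukocyte and macrophage counts in DKO_EP, the muscle count in DKO_EE and the dendritic cell counts in DKO are near or below the shares of all genes. The part of these markers in the member changes was not tested.

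Of 8 checkpoint ligand genes, 6 fell in DKO_EE, 6 in DKO_EP and 2 in DKO, the last near the 18.7% of all genes that were lower. Pdcd1lg2, which encodes PD-L2, changed by -3.58 in DKO_EE (adjusted p = 3.05e-05) and -2.60 in DKO_EP (adjusted p = 0.00972). Cd274, which encodes PD-L1, fell by 1.38 in DKO_EE (SE 0.49, adjusted p = 0.0180), and its differences of -0.52 in DKO_EP (adjusted p = 0.513) and -0.21 in DKO (adjusted p = 0.823) did not pass. Fgl1, a ligand gene of LAG-3, fell by 3.28 in DKO_EE, 3.92 in DKO_EP and 2.64 in DKO (adjusted p = 0.000118, 0.000259 and 0.0120). Cxcl10, which encodes a chemokine that draws T cells through CXCR3, changed by -3.90 in DKO_EE, -3.13 in DKO_EP and -3.16 in DKO, and 9, 6 and 2 of 11 chemokine and receptor genes fell, again near the share of all genes in DKO. Class II antigen presentation genes fell in 7 of 7 cases in DKO_EE, 2 of 7 in DKO_EP and 2 of 7 in DKO, where 2 of 7 is not far from the 22.9% and 18.7% of all genes, with Cd74 at -2.79, -1.58 and -1.71.

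At intact endstage the Ezh2 genotypes were compared with DKO and with each other, and no member passed. In DKO_EE against DKO, called members were 0 of 9, where 1.66% of all genes were called. In DKO_EP against DKO they were 0 of 9 (0% of all genes), and in DKO_EE against DKO_EP 0 of 9 (1.63%). Limma-voom called 0 in each. All 5 DKO_EP libraries and no DKO library held over 10% Lars2 reads, so in DKO_EP against DKO genotype and Lars2 share cannot be told apart. Cd3g and Nkg7 had an unadjusted p under 0.05 in both comparisons with DKO, which share the DKO animals, and Cd4 had one in DKO_EE against DKO_EP. Nkg7 averaged 1.95 ± 1.28 in 8 DKO_EE animals, 1.49 ± 1.45 in 3 DKO_EP animals and 3.69 ± 0.57 in 3 DKO animals (mean ± SD). Its log2 fold change was -1.74 in DKO_EE against DKO (SE 0.77, adjusted p = 0.270) and -2.20 in DKO_EP against DKO (SE 0.93, adjusted p = 0.845).

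Pdcd1 averaged 2.07 ± 1.36 in DKO_EE, 2.28 ± 0.74 in DKO_EP and 3.64 ± 1.20 in DKO, with 0 reads in 2 of 8 DKO_EE animals. The 8 DKO_EE animals spread widely: Cd8a ran from 0 reads in 2 animals to 32 reads in replicate 3. Among the other T and NK cell genes, Skap1 was the only one called, at 5.59 in DKO_EE against DKO (SE 0.93, adjusted p = 0.0105) and 6.79 in DKO_EE against DKO_EP (SE 0.93, adjusted p = 0.00305). The call against DKO was lost without DKO replicate 1 or 3, while without DKO_EE replicate 4 the comparison called 5 genes, 1 higher and 4 lower. Of the ligand genes, Lgals9, which encodes a galectin that binds TIM-3, was higher in DKO_EE by 2.33 against DKO (SE 0.34, adjusted p = 0.00488) and by 2.05 against DKO_EP (SE 0.34, adjusted p = 0.00849).

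For 6 of these intact endstage animals a pair of prostate pieces was sequenced, named by letters such as AP, DP and LP. In the 4 DKO_EE animals among them the pieces differed by a median of 0.30 for Cd3e, 0.82 for Cd4, 0.38 for Pdcd1 and 0.49 for Lag3 (log2), beside an SD between the 8 DKO_EE animals of 1.52, 0.75, 1.36 and 0.74. The range over the 4 was wide for Cd3e, from 0, where both pieces had 0 reads, to 2.86, and in the 2 DKO_EP animals its pieces differed by 3.13 and 3.99. In DKO_EP replicate 2, Cd3e had 7 reads in DP and 0 in AP, while Pdcd1 had 0 reads in DP and 14 in AP. In DKO_EP replicate 1, Cd4 had 0 reads in AP and 25 in LP-DP.

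In castrated endstage tumours the members other than Cd4 and Lag3 had few reads in both Ezh2 genotypes. Member values are given as a description because they led to the list. Pdcd1 had 0 reads in each of 5 DKO_EP animals, 0, 0, 0, 1 and 0 reads in DKO_EE animals, and 9, 9, 6 and 5 reads in DKO animals. Both Ezh2 genotypes lie below every DKO animal. The castrated DKO_EP animals were of 34 to 37 weeks and the castrated DKO animals of 39 to 99 weeks. Genotype and age therefore cannot be told apart in any comparison of castrated DKO_EP with castrated DKO tumours. With 0 of 30146655 reads in the 5 DKO_EP animals, a count of 0 allows up to 3 reads over the group, which was taken as a floor. Pdcd1 in castrated DKO tumours (29 reads) lay 12.7-fold above that floor, and in intact DKO_EP tumours (26 reads) 13.6-fold above it. Of those 26 reads 14 lay in 1 library, the AP piece of replicate 2, and without it the fold was 8.21. All 5 intact DKO_EP libraries held over 10% Lars2 reads and no castrated library did. The intact DKO_EP animals were of 39 to 52 weeks, older than every castrated one. Castration, Lars2 share and age therefore cannot be told apart in DKO_EP. These folds describe values that led to the list. They cover the counting error of the 0 only and leave out that of the compared group.

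The single read in DKO_EE tumours, in replicate 4, separates DKO_EE from DKO_EP by no more than counting can give. Ctla4 also had 0 reads in each DKO_EP animal, with 0, 0, 0, 1 and 0 in DKO_EE and 1, 1, 0 and 4 in DKO, so it was nearly absent from all 3 genotypes. Of the 6 DKO reads 4 lay in replicate 4, and no fold is given.

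Cd3e had 0, 0, 2, 1 and 6 reads in castrated DKO_EE animals and 1, 2, 1, 0 and 0 in DKO_EP animals, against 29, 32, 1 and 14 in DKO animals. DKO replicate 3, of 84 weeks, lay with the Ezh2 genotypes at 1 read and had 0 Cd3g reads and 1 Nkg7 read, but 6 Pdcd1 reads. The mean log2 difference of Cd3e was -2.81 in DKO_EE and -3.18 in DKO_EP against DKO. The corresponding differences were -2.90 and -2.33 for Cd3g, -2.80 and -2.49 for Cd8a, -2.74 and -2.80 for Nkg7, and -3.11 and -3.33 for Pdcd1, where the DKO_EP group is at 0 and the value depends on the offset of 1. Cd8a had at most 3 reads in a DKO_EE or DKO_EP animal, against 21, 20, 5 and 12 in DKO animals, without overlap.

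Gzmb was low in all 3 genotypes, with 0, 0, 7, 1 and 0 reads in DKO_EE, 1, 1, 0, 0 and 0 in DKO_EP, and 1, 2, 0 and 4 in DKO. Cd4 and Lag3 kept their levels: Cd4 averaged 4.54 ± 0.97 in DKO_EE, 4.34 ± 0.38 in DKO_EP and 4.68 ± 0.89 in DKO. Lag3 averaged 5.16 ± 0.66 in the 5 DKO_EE animals, 5.26 ± 0.54 in the 5 DKO_EP animals and 5.52 ± 1.32 in the 4 DKO animals (mean ± SD). Pdcd1 was therefore at 0 in DKO_EP animals in which Lag3 had 18 to 42 reads and Cd4 had 11 to 19.

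Other T and NK cell genes were tested in the castrated tumours. Their lists were chosen with earlier results of these data known, and the animals are those whose values chose the members. These tests are therefore not independent of that choice. In DKO_EE against DKO, 9 of 50 were lower and 1 higher, where 4.3% of all genes were lower and 3.42% higher. Among the lower genes were Bcl11b, Btla, Ccr7, Cd8b1, Eomes, Foxp3 and Themis. Cd8b1, the partner chain gene of Cd8a, averaged 0.53 ± 0.75 in 5 DKO_EE animals and 2.98 ± 0.42 in 4 DKO animals (mean ± SD), a log2 fold change of -2.45 (SE 0.53, adjusted p = 0.0161). Bcl11b, a T cell lineage factor gene, changed by -4.20 (SE 0.83, adjusted p = 0.0112). Bcl11b had 7, 3, 1, 3 and 2 reads in DKO_EE and 12, 252, 188 and 18 in DKO, so its high values lie in DKO replicates 2 and 3, the animals of 99 and 84 weeks.

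Foxp3 had 0 reads in all 5 DKO_EE animals, against 9, 2, 1 and 5 in DKO (limma adjusted p = 0.0176). DKO lay 8.16-fold above a floor of 3 reads, or 5.16-fold without DKO replicate 1, which held 9 of the 17 reads. Eomes also had 0 reads in DKO_EE (limma adjusted p = 0.0364). DKO lay 11.5-fold above the same floor, or 7.51-fold without DKO replicate 2, which held 12 of the 24 reads. Both folds leave out the counting error of the DKO reads. The higher gene was Skap1, by 5.77 (SE 1.0, adjusted p = 0.00510). Without DKO replicate 3 the count was 23, of which 21 were lower. Without DKO_EE replicate 1, 2 or 5 it was 6, 6 and 5, without DKO replicate 1 or 4 it was 6 each time, and with age as a covariate it was 3. In DKO_EP against DKO, 0 of 50 were called, where 0.0302% of all genes were called, with 26 at an unadjusted p under 0.05 and 0 by limma-voom. The count was 3 without DKO replicate 3 and with all 11 groups in one fit. In DKO_EE against DKO_EP, Skap1 was called (5.42, SE 0.94, adjusted p = 0.0101) and no other of the 50, where 1.7% of all genes were called. Foxp3 in DKO_EP against DKO had a log2 fold change of -1.07 (SE 0.52, adjusted p = 0.355).

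Lists of other cells in the castrated tumours gave mixed counts. No leukocyte gene of 7 and no B and plasma cell gene of 10 was called in DKO_EE against DKO. Of all genes, 4.3% were lower there and 3.42% higher. Class II presentation genes were lower in 4 of 7 cases, mast cell genes in 3 of 6, fibroblast genes in 3 of 5 and dendritic cell genes in 2 of 7. Summed fibroblast counts ran from 2095 to 6242 in DKO_EE and from 7161 to 14826 in DKO. Of the mast cell genes 4 of 6 had 0 reads in every castrated DKO_EE animal, among them Cpa3, Cma1 and Tpsb2. Cd80, a ligand gene of CTLA-4 and CD28, was lower by a log2 fold change of -2.67 (SE 0.59, adjusted p = 0.0176), and Cd274 differed by -0.38 (SE 0.45, adjusted p = 0.632). The part of these in the T cell values was not tested.

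Castrated endstage tumours were set beside intact endstage tumours of the same genotype. Member values are again a description. In DKO_EP, all 5 intact libraries and no castrated library held over 10% Lars2 reads, and every intact animal was older than every castrated one. Castration, Lars2 share and age cannot be told apart there. Pdcd1 had a group mean of 0 in castrated DKO_EP tumours, against 2.28 in intact ones, of 0.23 in castrated DKO_EE tumours, against 2.07 in intact ones, and of 3.33 in castrated DKO tumours, against 3.64 in intact ones. Cd3e was higher in castrated DKO tumours, at 4.01, against 2.75 in intact ones, and lower in castrated DKO_EE (1.20 against 1.90) and DKO_EP tumours (0.83 against 1.69). The ranges of animals overlapped except in DKO_EP for Pdcd1, where the DP piece of intact replicate 2 was also at 0 reads.

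Few of the 51 other T and NK cell genes passed in these comparisons. In DKO, Bcl11b was higher in castrated tumours (3.04, SE 1.05, adjusted p = 0.0451) and Cd28 lower (-2.22, SE 0.67, adjusted p = 0.0187), where 13.9% of all genes were called. In DKO_EE Cd28 was lower (-1.57, SE 0.50, adjusted p = 0.0224), where 16.5% of all genes were called, and in DKO_EP Fyb, an adaptor gene, was lower (-1.74, SE 0.52, adjusted p = 0.0234), where 9.87% were called. These shares lie below those of all genes, and each of these calls was lost when some single animals were left out. Without intact DKO_EE replicate 7 the DKO_EE count was 7, all lower, and it was 4 without castrated replicate 3.

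Castrated TKO tumours were from younger mice, of 15 to 19 weeks. With vehicle, the group means of Cd3g, Cd8a, Pdcd1, Ctla4 and Nkg7 lay above both castrated Ezh2 genotypes and below castrated DKO tumours, while those of Cd4 and Lag3 lay below all 3 and that of Gzmb above all 3. The vehicle means of Ctla4 and Nkg7 rest on 2 and 3 reads in replicate 2, with every other animal of the group at 0. Cd3e had 6, 1, 0 and 0 reads in TKO animals, against 29, 32, 1 and 14 in castrated DKO animals, and Pdcd1 had 2, 3, 0 and 0 reads, against 9, 9, 6 and 5. None of 51 other T and NK cell genes passed between these groups, where 0.566% of all genes were called, with 16 at an unadjusted p under 0.05 and 0 by limma-voom. The count was 3 without TKO vehicle replicate 1 and 1 without DKO replicate 1. Age and model cannot be told apart here.

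Treatment with CPI1688 was the comparison on Ezh2 inhibition. No member passed between CPI1688 and vehicle in castrated TKO mice, where 0% of all genes were called, 337 genes had an unadjusted p under 0.05, and no member did. Limma-voom called 0. Of the 9 log2 fold changes, 1 was below 0 (Cd3g) and the median was 0.53, against 0.02 over all genes. Nkg7 had the largest, with 1, 2, 4 and 3 reads in CPI1688 animals against 0, 3, 0 and 0 in vehicle animals (1.42, SE 0.62, adjusted p = 0.9999). Cd3e had 6, 1, 4 and 3 reads with CPI1688 against 6, 1, 0 and 0 with vehicle (1.20, SE 0.80, adjusted p = 0.9999). The ranges overlap for both genes. Of the other T and NK cell genes, 0 of 51 were called, with 3 at an unadjusted p under 0.05.

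Members were compared over animals with the group means taken out. The tests used the 34 animals outside the castrated DKO_EE, DKO_EP and DKO groups. There Cd3e correlated within groups with 7 of the 8 others by Pearson's r and 5 of 8 by Spearman's rho, by a permutation test with 100000 resamples within groups, adjusted over the 8 relations. The strongest relation was with Cd8a, at r = 0.67 (adjusted p = 0.0118) and rho = 0.69 (adjusted p = 0.00256). Ctla4 followed at r = 0.64 (adjusted p = 0.00976) and rho = 0.55 (adjusted p = 0.01), and Cd3g at r = 0.60 (adjusted p = 0.0166) and rho = 0.57 (adjusted p = 0.01). Nkg7 had r = 0.57 (adjusted p = 0.0125) and rho = 0.55 (adjusted p = 0.01), and Gzmb r = 0.49 (adjusted p = 0.0411) and rho = 0.45 (adjusted p = 0.0322).

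Lag3 passed by r, at 0.47 (adjusted p = 0.0411), and not by rho, at 0.38 (adjusted p = 0.0604). Cd4 did likewise, at r = 0.36 (adjusted p = 0.0459) and rho = 0.24 (adjusted p = 0.216). Pdcd1 passed by neither, at r = 0.28 (adjusted p = 0.214) and rho = 0.42 (adjusted p = 0.0506). Without the 2 animals farthest from the median of Cd3e, r was 0.62 for Ctla4, 0.59 for Cd8a, 0.58 for Nkg7, 0.56 for Pdcd1, 0.54 for Cd3g, 0.32 for Gzmb, 0.29 for Lag3 and 0.14 for Cd4, so the relation with Cd4 rests on those 2 animals and those with Lag3 and Gzmb in part. As a description over all 48 animals, r was 0.70 for Cd3g, 0.63 for Cd8a, 0.55 for Nkg7, 0.54 for Ctla4, 0.47 for Gzmb, 0.45 for Cd4, 0.24 for Pdcd1 and 0.14 for Lag3. All these genes are measured in the same libraries and at few reads.

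**Figure D4:**
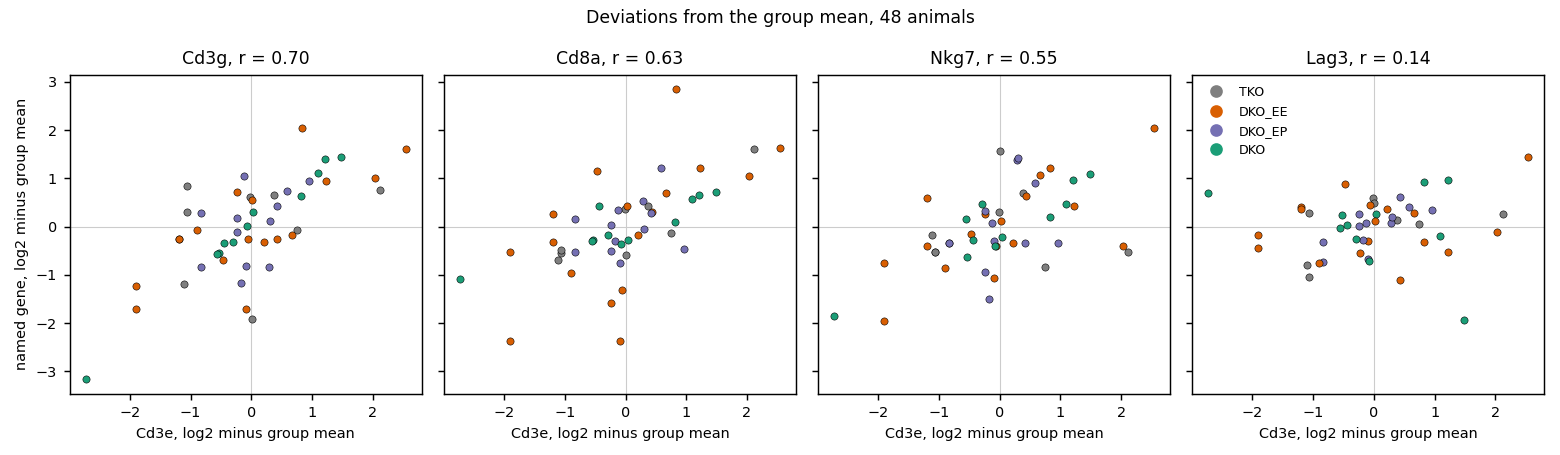
Each point is 1 of 48 animals, placed by the difference of its Cd3e log2 value from the group mean (x axis) and that of the gene named above the panel (y axis). As a description, r over all 48 animals was 0.70 for Cd3g, 0.63 for Cd8a, 0.55 for Nkg7 and 0.14 for Lag3, and that of Lag3 was 0.47 over the 34 animals outside the castrated DKO_EE, DKO_EP and DKO groups.

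Among the genes whose levels over the 48 animals were most like Cd3e, of those with a mean log2 value of at least 3, were Cd74 (r = 0.90), Rasal3 (0.89), H2-Eb1 (0.87) and H2-Ab1 (0.87). Within groups their r was 0.73, 0.73, 0.67 and 0.67. Cd74, H2-Eb1 and H2-Ab1 are class II presentation genes. For Pdcd1 they were Cfb (r = 0.78), Traf3ip3 (0.77), Gm7609 (0.77), Serpina3g (0.76) and Itgam (0.76), with within-group r of 0.50, 0.39, 0.22, 0.52 and 0.49. Cfb encodes complement factor B and Itgam the myeloid integrin CD11b. These are descriptions over animals that share the differences between groups.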

How the data were processed

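RNA of mouse prostate tumour tissue was sequenced after ribosomal RNA depletion, per the labels' protocols, and the submitters' processing notes name FastQC, STAR, RSEM, limma and DESeq2 with GRCm38/mm10. The authors deposited log2 values of a normalized count plus 1 for 16772 genes. Of 56 columns, 2 matched no sample and were not used. Dividing the normalized counts by the step of each library recovered whole reads (100% of values within 0.05 of a read), which gave the depths of 3687048 to 9741808 reads. Shares and floors rest on these reads and cover counting error only.

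Values of 6 animals with 2 libraries, taken as 1 animal from their identifiers, were averaged. Differences were fitted with limma 3.58.1 (R 4.3.3, trended variance) across all genes, with Benjamini-Hochberg adjustment and a threshold of 0.05. The intact 12-week, intact endstage, castrated endstage and TKO sets were fitted separately, and the changes over time, the interactions, castrated against intact and TKO against DKO with all 11 groups. The scripts were tested on simulated data with 200 changed genes. Correlations used 100000 permutations within groups (scipy 1.17.1). The design set them over all animals, and the tests printed use 34 animals, which leaves out the groups whose values chose the members. Alternatives were an offset of 8, leaving out the lowest 25% of genes, quantile normalization, limma-voom on recovered reads, other sets of groups, age as a covariate, the first library of each animal, libraries under 10% Lars2, and leaving out each animal. Leaving out animals or libraries behind a fold above a floor, and comparing the pieces of DKO_EE animals alone, were chosen after seeing the data.

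The members and lists were chosen with earlier results of these data known. The text names the 9 members, of each other list up to 4 called genes with the smallest adjusted p in a comparison, Ptprc, Skap1, Cd274 and Foxp3, and the 5 genes most like Cd3e and Pdcd1. Some results under this rule are not reported here. List genes without a row (Trac, Trbc1, Trbc2, Cd40lg, Ifng, Cd244a, Vsir and Nectin2) and the SKO model were not analysed here.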

Additional observations from a re-analysis of the deposited data

Results flagged for a closer look

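Among 81 sets of 1 gene in 1 group of 4 to 8 animals, 8 held an animal far from the others by Dixon's test, where chance flags about 1 in 20, a rate that does not apply to sets mostly at 0. In 6 of them every other animal of the group was at 0, so that a single read is enough for the flag. The values in the castrated DKO_EE and DKO_EP groups are a description, since these values led to the list. They were Cd3g in castrated DKO_EE replicate 5 (log2 value 1.26, 1 read), Pdcd1 and Ctla4 in castrated DKO_EE replicate 4 (1.14 each, 1 read each), and Nkg7 in castrated DKO_EP replicate 3 (1.73, 2 reads). In castrated TKO animals with vehicle the sets with all other animals at 0 were Ctla4 (1.67, 2 reads) and Nkg7 (2.10, 3 reads), both in replicate 2.

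The other flags lay in the same TKO vehicle group. Cd8a was high in replicate 1, at 3.85 (10 reads), and Lag3 was low in replicate 3, at 3.63 (10 reads).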

How the results depend on the processing

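No log2 fold change of a member called over time and no correlation with Cd3e changed direction. The other results were compared by their counts of calls only. Called members were 1 in each genotype over time (DKO_EE, DKO_EP and DKO, against 5, 7 and 3) without the lowest 25% of genes, which removes 7 of the 9 members. They were 4 in DKO_EP with quantile normalization, 2 in DKO_EP and 1 in DKO with limma-voom, and 1 in DKO with the first library of each animal. Without 1 animal they were 5 to 6 in DKO_EE, 2 to 6 in DKO_EP and 1 to 2 in DKO.

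Called other T and NK cell genes over time were 9, 5 and 2 without the lowest 25% of genes (against 46, 30 and 12), 19 in DKO with an offset of 8, and 37 to 47, 21 to 31 and 8 to 16 without 1 animal. Their interaction of DKO_EE with time called 1 with only the groups compared. At intact endstage DKO_EE against DKO called 3 with an offset of 8 and 0 to 5 without 1 animal, and DKO_EE against DKO_EP 1 to 2.

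In castrated tumours DKO_EE against DKO called 1 without the lowest 25% of genes, 3 with age as a covariate and 5 to 23 without 1 animal. DKO_EP against DKO called 3 with all 11 groups and 0 to 3 without 1 animal, and DKO_EE against DKO_EP 1 to 2. Castrated against intact DKO called 0 without the lowest 25% of genes or with only the groups compared, 1 with an offset of 8, limma-voom, first libraries or low Lars2, and 0 to 2 without 1 animal. In DKO_EE it called 0 without the lowest 25% of genes, with an offset of 8, quantile normalization or low Lars2, and 0 to 7 without 1 animal. In DKO_EP it called 5 with only the groups compared and 0 to 1 without 1 animal. TKO vehicle against DKO called 0 to 3 without 1 animal. The cause of these shifts was not tested, beyond the filter removing genes. No paired analysis was possible because the labels give no replicate numbers and no animal is in more than 1 of the groups compared. Most members had few reads an animal, so small differences were not detectable at this depth.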

Other observations

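The genes most like Lag3 over the 48 animals, looked up after its values were seen, were Traip (r = 0.75), Mtbp (0.75), Atad5 (0.74), Mybl2 (0.74) and Ddias (0.74). Within groups their r was 0.60, 0.58, 0.64, 0.56 and 0.49. None is on a list of T or NK cell genes used here, and Cd3e had r = 0.14 with Lag3 within groups over all 48 animals and 0.47 without the castrated DKO_EE, DKO_EP and DKO groups. Mybl2 encodes a transcription factor of cell cycle genes.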
